A study of Mus musculus with 6 samples.

Results

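Arginine is a shared substrate of nitric oxide synthases and arginases, and its use was examined here through 9 genes of arginine, nitric oxide and polyamine metabolism: Nos2, Nos3, Arg1, Arg2, Ass1, Asl, Slc7a2, Odc1 and Oat. They were taken from a given list by symbol. All 9 were present among the 33184 genes of the deposited table, and all 9 passed the filter on low values, which kept 16005 genes. RNA-seq was made of skin wounds of db/db mice, a diabetic line on the C57BL/Ks background without a functional leptin receptor. Each mouse received a round, full-thickness skin wound of 0.6 cm, and siRNA was injected into the skin around it at dpi1, where dpi counts days after injury. The NC group received NC-siRNA, a control siRNA, and the other group received SFRP2-siRNA, with 3 libraries each. Wound tissues were collected at dpi4, in the inflammatory phase, although the sample titles carry day 3. Age and sex were not given, both groups shared the dbdb genotype and the injury, and whole wounds were sequenced, so every value is a mean over all cell types of the tissue. Nothing states that the libraries of a group are separate mice, so p-values measure only the spread between these libraries.

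The pathway has a fork at arginine. Inducible nitric oxide synthase (iNOS, encoded by Nos2) of inflammatory macrophages turns arginine into nitric oxide and citrulline, and argininosuccinate synthase and lyase (Ass1 and Asl) turn citrulline back into arginine. Arginases split arginine into urea and ornithine, which ornithine decarboxylase (Odc1) feeds into polyamines and ornithine aminotransferase (Oat) feeds towards glutamate and proline, a main residue of collagen. In wounds, iNOS is used as a marker of inflammatory macrophages and arginase 1 as a marker of pro-healing macrophages, and the study stained both proteins.

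The siRNAs that define the groups are shown first, because the sample titles and the siRNA names share the numbers 1 to 3. These are the antisense strands as the study's supplement gives them, 5′ to 3′ and without the dTdT overhang, with the seed (bases 2 to 8) in capitals.

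SiRNA-1: uUCAUGACcagcggaaucc
SiRNA-2: uUGUCGUCcucauucuugg
SiRNA-3: aUCUUGGUgucucuguuga
NC: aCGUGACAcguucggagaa

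Whether each treated library received 1 sequence or a mixture is not stated. The sense strands of SiRNA-1, SiRNA-2 and SiRNA-3 matched 2, 3 and 1 of the 3 Sfrp2 transcripts in GENCODE vM21, and no transcript of another tested gene. The site complementary to the seed was present in a coding transcript of Asl for SiRNA-1, of none of the 9 genes for SiRNA-2, and of Nos2 and Slc7a2 for SiRNA-3. For the NC siRNA it was present in Nos2 and Odc1. Among 13660 tested genes with a coding transcript, 17.2%, 10.7%, 33.0% and 8.18% held the sites of SiRNA-1, SiRNA-2, SiRNA-3 and NC. A match is a run of letters and not a shown binding site.

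The libraries held 42.9 to 47.1 M reads, with overlapping ranges in the groups. Sfrp2, the siRNA target, had 11.6, 40.6 and 14.1 FPKM (fragments per kilobase of gene and M mapped fragments) in NC and 50.6, 54.6 and 55.2 FPKM in the SFRP2-siRNA-labelled libraries. The target was thus higher where it was to be suppressed, so each direction refers to a label, and the libraries called treated are those with the SFRP2-siRNA label, without any claim that Sfrp2 was lost. Whether the labels match the injections was not tested, and these values are of RNA and not of SFRP2 protein. Macrophage markers were also higher in these libraries, and their values are given beside the results.

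Nos2 and Arg1 were about 2 times as high in the SFRP2-siRNA-labelled libraries. They were the only 2 of the 9 genes whose groups did not overlap, against 17.8% of all genes tested. Nos2 had 2.14, 3.51 and 1.72 FPKM in NC 1, 2 and 3, and 4.84, 6.15 and 5.77 FPKM in the treated libraries 1, 2 and 3. The lowest treated library was above the highest NC library, NC 2. Group means of 2.45 ± 0.94 and 5.59 ± 0.67 FPKM (SD, n = 3 each) stood in a ratio of 2.28.

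Arg1, the arginase of the urea cycle and of pro-healing macrophages, gave 36.0, 48.5 and 43.3 FPKM in NC 1, 2 and 3. Its level was 100.8, 95.1 and 61.5 FPKM in the treated libraries 1, 2 and 3. Libraries 1 and 2 of the treated group stood far above NC, and library 3 stood closer to it. Group means of 42.6 ± 6.28 and 85.8 ± 21.2 FPKM (SD, n = 3 each) stood in a ratio of 2.01. Genes used as markers of opposite macrophage phenotypes were therefore both higher in the same libraries.

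**Figure D1:**
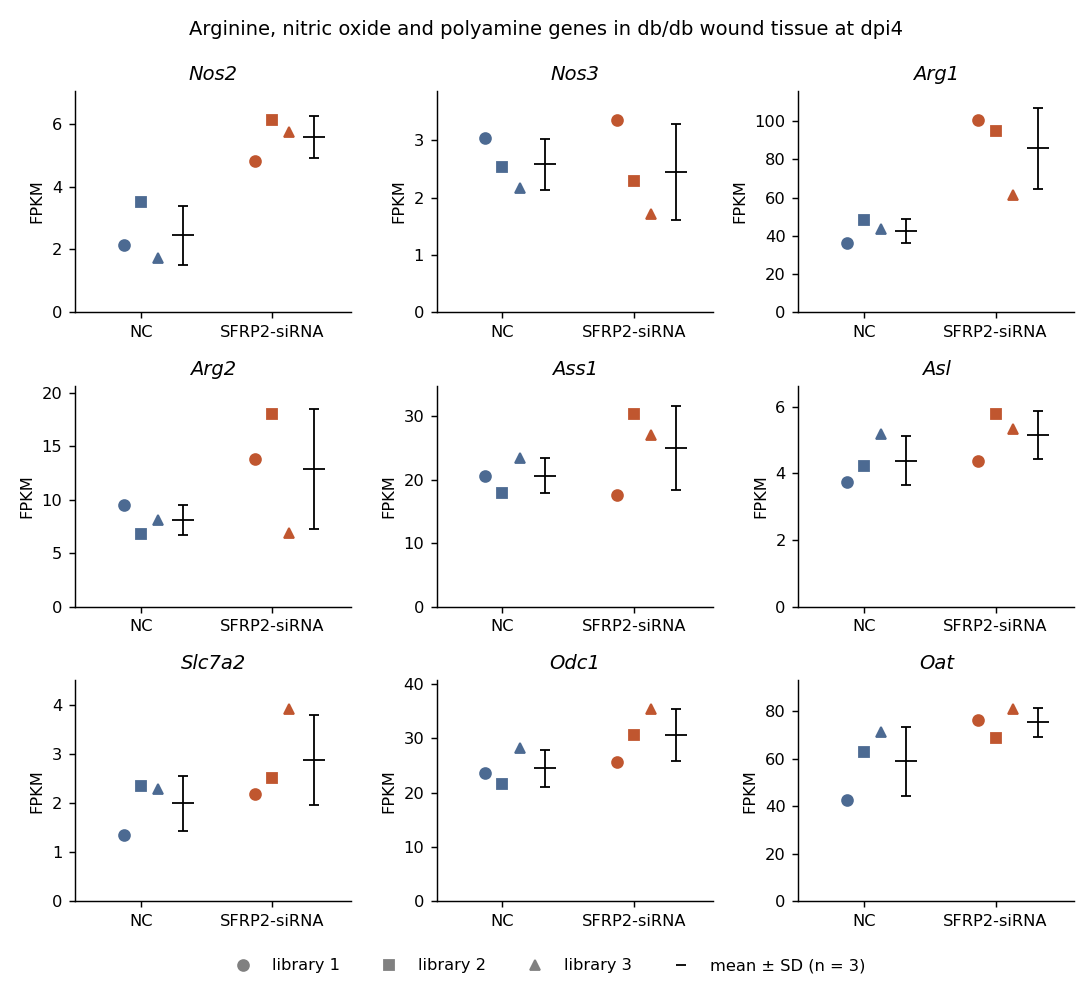
FPKM (vertical axes, from 0) of the 9 genes in each library of the NC and SFRP2-siRNA groups, with the mean ± SD (n = 3) beside the points and 1 symbol per replicate number. The groups separate for Nos2 and Arg1 and overlap for the other 7 genes. Over all genes tested, 17.8% separate.

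On the log2(FPKM + 1) scale, the log2 fold change was 0.96 (SE 0.21, 95% CI 0.47 to 1.45) for Nos2 and 0.97 (SE 0.23, 95% CI 0.42 to 1.52) for Arg1. Unadjusted limma p-values were 0.0026 and 0.00448. After Benjamini-Hochberg adjustment over 16005 genes the limma p was 0.518 for both, so neither passed the threshold of 0.05. The two-sided exact permutation p was 0.1 for both, the smallest that 3 against 3 libraries allow. No gene passed the adjusted limma threshold, so the percentage called was 0%, while 1533 genes, 9.58%, had an unadjusted p under 0.05 (6.72% higher and 2.86% lower in the treated libraries), against 2 of the 9, both higher. Limma voom on recovered reads also called no gene, with 1084 higher and 457 lower at an unadjusted p under 0.05. Median-of-ratios scaling, which set the median of all genes to 0, turned the unadjusted split from 1075 higher and 458 lower to 422 higher and 770 lower, while Nos2 and Arg1 stayed higher. The groups did not overlap for 17.8% of all genes, 13.9% with the treated libraries higher, against 2 of the 9 genes. Of all genes, 71.8% had a log2 fold change above 0, against 8 of the 9, and the median log2 fold change was 0.125 over all genes and 0.36 over the 9. These shares are given as background, and the 9 genes were not tested as a set.

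Leaving out any 1 library kept Nos2 between 0.80 and 1.17 and Arg1 between 0.84 and 1.19 on the log2 scale. The groups stayed apart for both genes in these 6 fits. Nos2 rested on 349 to 1236 reads and Arg1 on 3539 to 9638 reads per library.

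Macrophage markers were higher in the same libraries. All 12 had a log2 fold change above 0, against 71.8% of all genes, with a median of 0.67. An unadjusted limma p under 0.05 was found for 9 of the 12, against 9.58% of all genes, but none passed adjustment. The summed level of the 12 was 1093 to 1732 FPKM in NC and 1942 to 2566 FPKM in the treated libraries. None of the 12 was at 0. The F4/80 gene Adgre1 had 8.75, 27.4 and 15.5 FPKM in NC and 35.2, 26.6 and 27.8 FPKM in the treated libraries. The CD11b gene Itgam had 4.0 to 7.12 FPKM against 7.36 to 17.8 FPKM, without overlap. Cd68, a lysosomal macrophage protein, had 89.5 to 138.5 and 136.5 to 210.9 FPKM, with overlap.

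Relative to these markers, the differences of both genes were smaller and depended on single libraries. The mean log2(FPKM + 1) of the 12 markers was subtracted from that of Nos2 in each library, which gave -3.70, -3.83 and -3.96 in NC and -4.03, -3.41 and -3.30 in the treated libraries. Treated library 1 was the lowest of all 6 and treated libraries 2 and 3 were the highest. The difference between groups was 0.25 (two-sided exact permutation p = 0.4). It was 0.11 without treated library 3, 0.16 without treated library 2, 0.47 without treated library 1 and 0.47 with a pseudocount of 0.1.

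For Arg1 the same subtraction gave -0.14, -0.38 and 0.075 in NC and 0.090, 0.34 and -0.096 in the treated libraries. Only treated library 3 lay within the range of NC, and the difference was 0.26 (exact permutation p = 0.2). It was 0.14 both without NC 2 and without treated library 2, 0.37 without NC 3 and 0.36 without treated library 3. More macrophages and more RNA of a gene per macrophage cannot be told apart in such tissue libraries. Fibroblast markers were also higher, with all 8 above 0, against 71.8% of all genes, and a median log2 fold change of 0.79. Their summed levels were 881.8 to 1945 FPKM in NC and 2149 to 2251 FPKM in the treated libraries. The unadjusted limma p was under 0.05 for 7 of these 8, against 9.58% of all genes, but none passed adjustment. The groups did not overlap for 6 of these 8, against 6 of the 12 macrophage markers and 17.8% of all genes. Skeletal muscle markers were higher by a similar median, 0.66, with all 8 above 0 and all 8 overlapping between groups. Their summed levels were 3410 to 6791 FPKM in NC and 4562 to 12810 FPKM in the treated libraries, and the median was 0.32 without treated library 3. Keratinocyte markers had a median of -0.205, with 7 of 10 below 0, which became 0.021 without treated library 3. The part of fibroblasts, muscle and keratinocytes in the values of Nos2 and Arg1 was not tested.

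The balance of Nos2 to Arg1 did not differ beyond the spread of the libraries. Nos2 FPKM divided by Arg1 FPKM was 0.0594, 0.0723 and 0.0396 in NC 1, 2 and 3. It was 0.0480, 0.0647 and 0.0938 in the treated libraries 1, 2 and 3. Treated library 3 had the highest ratio and NC 3 the lowest, and the other 4 libraries were intermixed. The mean difference of log2 ratios was 0.26 (exact permutation p = 0.5), and it was 0.016 without NC 3, 0.0080 without treated library 3, 0.45 without NC 2 and 0.49 without treated library 1. Such a ratio within a library does not depend on how the libraries were scaled. For 3 against 3 libraries a p of 0.5 does not show that the balance was the same.

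Nos3, the endothelial synthase, did not separate the groups. It had 3.05, 2.54 and 2.16 FPKM in NC and 3.36, 2.30 and 1.71 FPKM in the treated libraries. The highest and the lowest of the 6 values were both in the treated group. The log2 fold change was -0.073 (SE 0.20, 95% CI -0.55 to 0.40), with an adjusted limma p of 0.872, and its sign turned to 0.019 without NC 1 and to 0.089 without treated library 3. Endothelial markers showed the same lack of separation, with 6 of 10 above 0, none without overlap and a median log2 fold change of 0.094, or -0.061 under median-of-ratios scaling, -0.030 without NC 3 and -0.135 without treated library 1.

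Nos3 FPKM exceeded Nos2 FPKM in NC 1 and NC 3, and Nos2 exceeded Nos3 in the other 4 libraries. The ratio of Nos2 to Nos3 was 0.702, 1.38 and 0.794 in NC and 1.44, 2.68 and 3.38 in the treated libraries. The groups did not overlap, though NC 2 and treated library 1 were close. The mean log2 ratio was -0.13 ± 0.52 in NC and 1.24 ± 0.64 in the treated group (SD, n = 3 each), a difference of 1.36 (two-sided exact permutation p = 0.1, and 0.64 after Benjamini-Hochberg adjustment across 8 within-library comparisons). This ratio was added after values were seen and holds Nos2, whose groups already did not overlap, so it is no separate result. Of the 4132 exon bases of Nos3, 294 are shared with Atg9b and 1040 with Gm15587, both on the opposite strand. Atg9b had 12.2 to 46.7 FPKM, Gm15587 at most 0.119 FPKM, and the strand setting of the counts is not given, so part of the Nos3 value may belong to Atg9b.

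**Figure D2:**
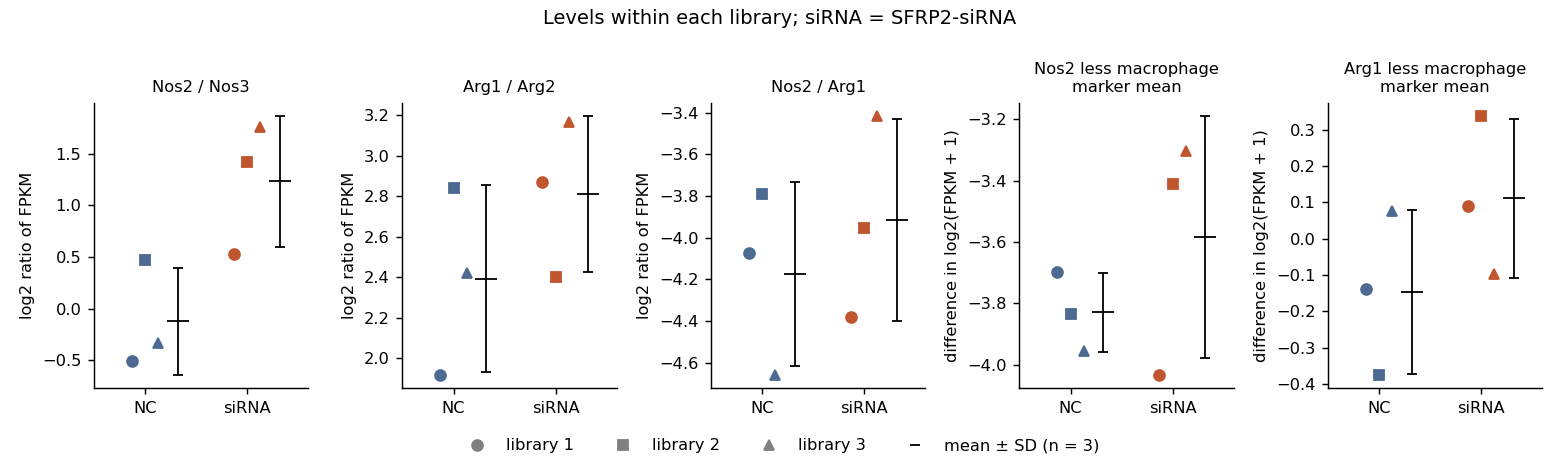
Levels within each library, as log2 ratios of FPKM for the first 3 panels and as differences in log2(FPKM + 1) from the mean of 12 macrophage markers for the last 2, with the mean ± SD (n = 3) beside the points; siRNA stands for SFRP2-siRNA, and the axes do not start at 0. Only the ratio of Nos2 to Nos3, which was added after values were seen, separates the groups.

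Arg2, the mitochondrial arginase, varied widely within the treated group. It had 9.54, 6.77 and 8.08 FPKM in NC and 13.8, 18.0 and 6.85 FPKM in the treated libraries. Treated libraries 1 and 2 were above every NC library, and treated library 3 was below 2 of the 3. The log2 fold change was 0.52 (SE 0.33, 95% CI -0.25 to 1.30), with an adjusted limma p of 0.558. It was 0.89 without treated library 3 and 0.25 without treated library 2. Of the 1428 exon bases of Arg2, 285 are shared with Vti1b, on the opposite strand at 29.3 to 38.4 FPKM.

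Of 10 neutrophil markers, 7 split the treated libraries in a similar way and 3 did not. S100a9, a calcium-binding protein of neutrophil cytosol, had 1368, 1377 and 909.6 FPKM in NC and 3529, 4658 and 805.3 FPKM in the treated libraries. Cxcr2, the chemokine receptor of neutrophils, had 9.91, 11.6 and 6.09 FPKM against 25.7, 24.3 and 5.08 FPKM. The summed level of the 10 markers was 1160 to 1813 FPKM in NC and 1006 to 5551 FPKM in the treated libraries, and none was at 0. The 7 markers, S100a9 and Cxcr2 among them, were above every NC library in treated libraries 1 and 2 and lower in treated library 3. The other markers were Ngp, Camp and Elane, which encode granule proteins made in neutrophil precursors. These were highest in NC 1 and had log2 fold changes of -0.0050, -0.36 and -0.235.

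Il1b, an inflammatory cytokine, followed this pattern too, with 111.2, 82.9 and 46.9 FPKM in NC and 222.6, 252.6 and 56.5 FPKM in the treated libraries. So did Smox, the spermine oxidase, with 17.5, 21.0 and 18.7 FPKM against 27.8, 35.9 and 17.3 FPKM. The pattern was not limited to neutrophil markers. The macrophage marker Cd14 had 117.1, 69.9 and 41.4 FPKM against 187.3, 155 and 57.0 FPKM. The keratinocyte marker Krt16 had 428.7, 593.1 and 495.4 FPKM against 1124, 948.6 and 205.1 FPKM. S100a9, Cxcr2, Il1b, Smox, Cd14 and Krt16 were picked after their values were seen. The part of neutrophils or other cells in the Arg2 value was not tested. Nos2 did not share the pattern, since treated library 3 had its second highest value.

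**Figure D3:**
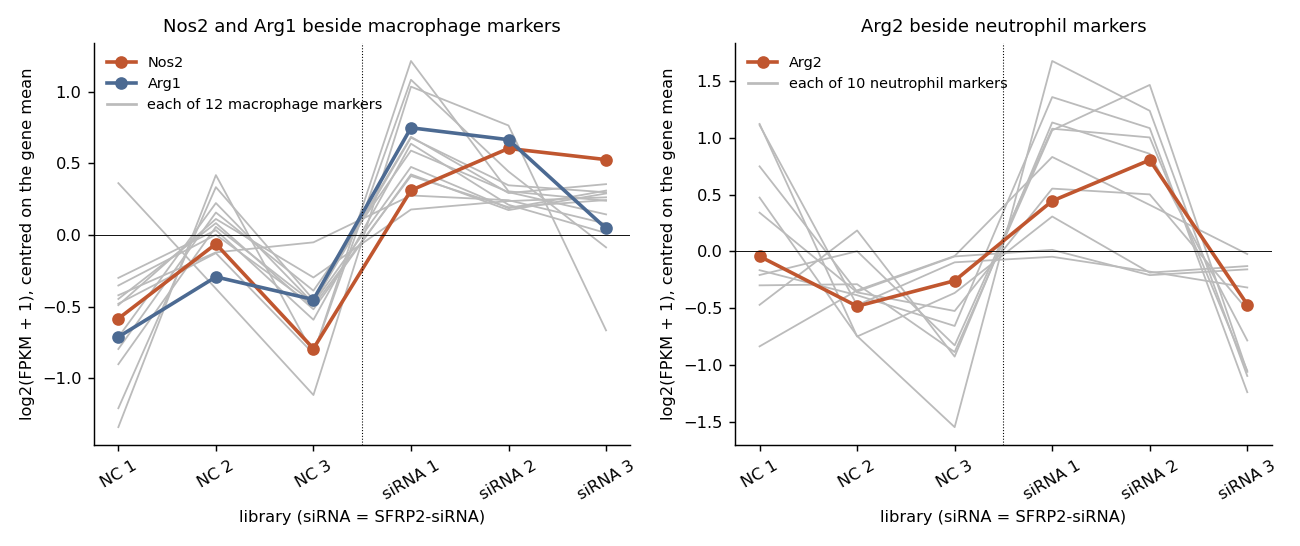
log2(FPKM + 1), centred on each gene's mean over the 6 libraries, for Nos2 and Arg1 beside 12 macrophage markers and for Arg2 beside 10 neutrophil markers; a line joins the values of 1 gene, and the libraries of a group have no order. Nos2 and Arg1 are above 0 in all 3 treated libraries, whereas Arg2 and 7 of the 10 neutrophil markers are above 0 in treated libraries 1 and 2 and below 0 in treated library 3; Ngp, Camp and Elane instead peak in NC 1.

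The ratio of Arg1 to Arg2 was 3.77, 7.16 and 5.36 in NC and 7.31, 5.28 and 8.98 in the treated libraries, so Arg1 was the more abundant arginase transcript per length in all 6. The groups overlapped, and the log2 ratio differed by 0.42 (exact permutation p = 0.3).

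The genes that rebuild arginine from citrulline had slightly higher means in the treated libraries, with overlap. Ass1 had 20.6, 18.0 and 23.4 FPKM in NC and 17.6, 30.3 and 27.0 FPKM in the treated libraries. Treated library 1 was the lowest of all 6 and treated library 2 the highest. The log2 fold change was 0.23 (SE 0.22, 95% CI -0.30 to 0.77), and it was 0.46 without treated library 1 (unadjusted limma p 0.0382, adjusted p 0.519). It was 0.14 without NC 2, 0.082 without treated library 2 and 0.076 under median-of-ratios scaling.

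Asl, which acts after Ass1, had 3.73, 4.22 and 5.17 FPKM in NC and 4.36, 5.77 and 5.32 FPKM in the treated group. The groups overlapped through NC 3 and treated library 1. The log2 fold change was 0.20 (SE 0.16, 95% CI -0.17 to 0.57). It was 0.11 without NC 1, 0.12 without treated library 2, 0.30 without NC 3 and 0.062 under median-of-ratios scaling. The 2 genes kept nearly the same ratio, with mean log2 ratios of 2.24 ± 0.20 and 2.25 ± 0.21 (SD, n = 3 each), a difference of 0.0040 (exact permutation p = 1). Adjusted limma p-values were 0.647 for Ass1 and 0.602 for Asl.

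Slc7a2 encodes CAT2, a cationic amino acid transporter that brings arginine into macrophages. It was the least abundant of the 9 in NC, with 1.36, 2.36 and 2.28 FPKM, and had 2.20, 2.52 and 3.92 FPKM in the treated libraries. NC 1 was lowest and treated library 3 highest, as for most of the skeletal muscle markers, whose part in this value was not tested, and the other 4 libraries lay between 2.20 and 2.52 FPKM. Its log2 fold change was 0.36 (SE 0.22, 95% CI -0.15 to 0.88), with an adjusted limma p of 0.548. It was 0.20 without NC 1, 0.18 without treated library 3 and 0.49 without treated library 1.

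Downstream of the arginases, Odc1 and Oat were both higher on average, with overlap. Odc1 had 23.7, 21.5 and 28.1 FPKM in NC and 25.7, 30.6 and 35.4 FPKM in the treated libraries. Only NC 3 lay within the treated range. Its log2 fold change was 0.31 (SE 0.17, 95% CI -0.11 to 0.72), with an adjusted limma p of 0.539. It was 0.20 without treated library 3, 0.42 without treated library 1 and 0.15 under median-of-ratios scaling.

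Oat had 42.9, 62.7 and 71.2 FPKM in NC and 76.2, 68.8 and 80.9 FPKM in the treated libraries. NC 1 stood lowest, and NC 3 exceeded treated library 2. Its log2 fold change was 0.38 (SE 0.22, 95% CI -0.14 to 0.89), with an adjusted limma p of 0.542. It was 0.17 without NC 1, 0.53 without NC 3 and 0.215 under median-of-ratios scaling. Odc1 and Oat did not shift against each other, since the log2 ratio of Odc1 to Oat differed by -0.065 (exact permutation p = 0.9).

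**Figure D4:**
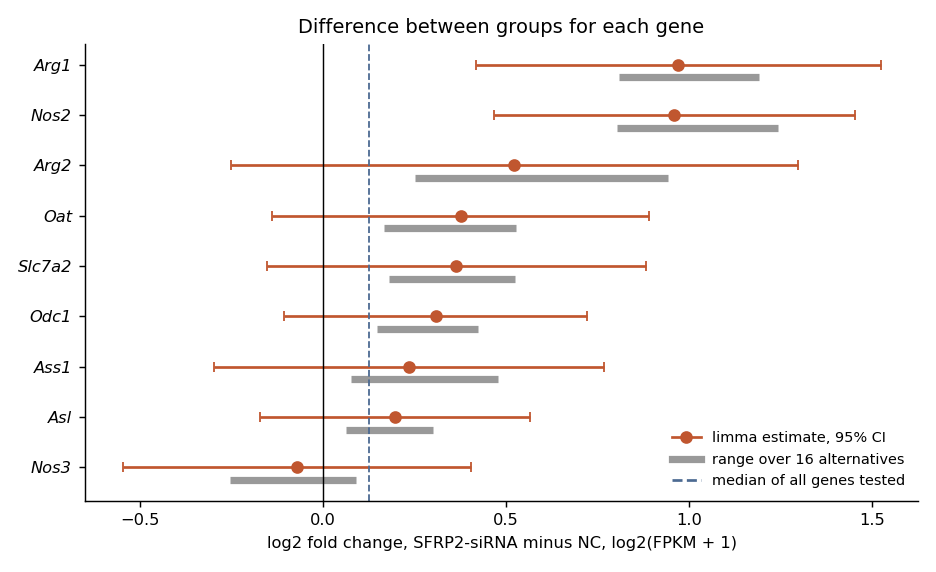
log2 fold change (SFRP2-siRNA minus NC, on the log2(FPKM + 1) scale) of each gene with its 95% CI from limma, the range over 16 alternatives as a grey bar and the median of all genes tested, 0.125, as a dashed line. The intervals of Nos2 and Arg1 lie above 0 and those of the other 7 genes include 0.

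In FPKM, which is a level per length, the order in NC from highest to lowest mean was Oat, Arg1, Odc1, Ass1, Arg2, Asl, Nos3, Nos2 and Slc7a2. The means ran from 58.9 ± 14.5 FPKM for Oat to 2.0 ± 0.56 FPKM for Slc7a2 (SD, n = 3 each). The ranges of Oat and Arg1, of Odc1 and Ass1, and of Nos3, Nos2 and Slc7a2 overlapped. Within every NC library, though, Oat was above Arg1 and Odc1 was above Ass1. The order of Nos3, Nos2 and Slc7a2 differed between NC libraries. In the treated libraries the order was Arg1, Oat, Odc1, Ass1, Arg2, Nos2, Asl, Slc7a2 and Nos3. Arg1 ranked above Oat there, at 85.8 ± 21.2 against 75.3 ± 6.13 FPKM, but their ranges overlapped. Nos2 ranked above Nos3 and Asl there. Its range overlapped with that of Asl, 5.15 ± 0.72 FPKM, but Nos2 was above Asl within every treated library.

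The rest of the pathway was read from 8 further lists, and no gene in them passed the adjusted threshold in either direction. Over all genes, 71.8% had a log2 fold change above 0 and 9.58% had an unadjusted limma p under 0.05. For 17.8% of all genes the groups did not overlap. Up to 3 genes with the smallest unadjusted limma p are named in each list. Gamt, Gch1, Pts, Spr, Oaz1, Oaz2, Prodh, Aldh4a1 and the genes near 0 are named besides for their roles, after their values were seen. Among 8 tested arginine transport genes, 6 had a log2 fold change above 0, 1 had an unadjusted p under 0.05 and the median was 0.12, close to the 0.125 of all genes (-0.0090 under median-of-ratios scaling, and 0.049 without NC 2 to 0.27 without NC 3 among fits that left out 1 library). Slc7a7, a partner of the y+L transport system, had 1.78, 3.62 and 2.17 FPKM in NC and 5.03, 3.67 and 3.46 FPKM in the treated libraries. Its log2 fold change was 0.54 (unadjusted limma p 0.0462, adjusted p 0.518), with NC 2 inside the treated range. Slc7a5, a transporter of large neutral amino acids, had log2 fold change 0.43 without overlap, and the mitochondrial carrier Slc25a29 had 0.20.

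Of the urea cycle and other uses of arginine, 4 of 8 genes could be tested. The liver enzyme Cps1 and its partner Nags were near 0, with at most 0.126 and 0.0156 FPKM. Gatm, which uses arginine to make the precursor of creatine, had 3.81, 5.23 and 4.80 FPKM in NC and 8.88, 8.67 and 11.2 FPKM in the treated libraries. The groups were far apart, and its log2 fold change of 0.92 (SE 0.16) was of the same size as that of Nos2 and Arg1, with an unadjusted limma p of 0.000766 and an adjusted p of 0.518. Gamt, which finishes creatine synthesis, had a log2 fold change of 0.042. Azin2, an antizyme inhibitor, had 0.29 without overlap, and the creatine kinase Ckb had 0.18.

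Among 12 tested genes of nitric oxide synthase cofactors, inhibitors and partners, 10 had a log2 fold change above 0, but the median was 0.071, below that of all genes, and -0.063 under median-of-ratios scaling. Leaving out 1 library gave this median a range from 0.069 without NC 1 to 0.14 without NC 3. The members that stood apart were both dimethylarginine dimethylaminohydrolases, enzymes that break down methylated arginines which inhibit nitric oxide synthases. Ddah1 had 4.09, 4.04 and 3.40 FPKM in NC and 11.4, 7.47 and 5.79 FPKM in the treated libraries, which is 0.89 (SE 0.23) as a log2 fold change, with an unadjusted limma p of 0.00625 and an adjusted p of 0.518. Ddah2 had 12.6, 15.9 and 14.6 FPKM against 16.7, 20.4 and 21.6 FPKM, which is 0.42 (SE 0.15) as a log2 fold change, with an unadjusted limma p of 0.0295 and an adjusted p of 0.518. Neither overlapped between groups.

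The genes that supply tetrahydrobiopterin, the cofactor of nitric oxide synthases, showed no such separation. Gch1, its rate-limiting enzyme, had 1.48, 2.54 and 2.41 FPKM in NC and 2.49, 2.72 and 1.58 FPKM in the treated group, with a log2 fold change of 0.054, and Pts and Spr had 0.056 and 0.054. Gchfr, the feedback regulator of Gch1, had 0.37 with overlap. Nos1, the neuronal synthase, was at most 0.853 FPKM and was not tested.

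Among 5 nitric oxide targets, the cGMP phosphodiesterase Pde5a had log2 fold change 0.18 without overlap, and the guanylate cyclase subunits Gucy1a1 and Gucy1b1 had 0.087 and 0.23. The median of this list was 0.093, and -0.0060 under median-of-ratios scaling.

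Of 16 tested genes of polyamine synthesis and turnover, 15 had a log2 fold change above 0, against 71.8% of all genes. The median was 0.22, and it was 0.13 without NC 1. Sat1, which acetylates spermidine and spermine for export or breakdown, had 58.8, 52.6 and 63.3 FPKM in NC and 79.6, 78.7 and 79.7 FPKM in the treated libraries. The treated libraries lay within about 1 FPKM of each other and above every NC library, with 0.44 (SE 0.14) as log2 fold change, an unadjusted limma p of 0.0178 and an adjusted p of 0.518. The spermine synthase Sms had 0.34 and the lysosomal polyamine exporter Atp13a2 had 0.36, both with overlap. The antizymes Oaz1 and Oaz2, which target ornithine decarboxylase for breakdown, had 0.093 and 0.16.

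The list for ornithine, glutamate and proline held 9 genes, with 6 above 0, against 71.8% of all genes, and a median of 0.39. An unadjusted limma p under 0.05 was found for 4, against 9.58% of all genes. Aldh18a1, which makes the common precursor of proline and ornithine from glutamate, had 8.75, 10.2 and 10.1 FPKM in NC and 12.3, 12.7 and 13.9 FPKM in the treated libraries. The groups did not overlap, and the log2 fold change was 0.39 (SE 0.12). Prolyl hydroxylase subunits of collagen synthesis, P4ha3 and P4ha1, had 0.80 and 0.61, with NC 2 inside the treated range for both. The proline-degrading enzymes Prodh and Aldh4a1 had -0.15 and -0.40, also with overlap.

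Receptors, cytokines and factors known to induce Nos2 or Arg1 were compared as well. For Nos2, all 14 tested genes had a log2 fold change above 0, against 71.8% of all genes, with a median of 0.37. The groups did not overlap for 2, against 17.8% of all genes. The median was 0.21 without treated library 1, 0.25 without NC 1 and 0.58 without treated library 3. Tlr4, the receptor for lipopolysaccharide, had 1.70, 3.89 and 2.37 FPKM in NC and 6.26, 4.14 and 3.66 FPKM in the treated group, a log2 fold change of 0.66. The transcription factors Irf8 and Nfkb1 had 0.60 and 0.37. Ifng, the classical inducer, was near 0 in every library, with at most 0.0900 FPKM, and was not tested.

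For Arg1, 11 of 14 tested genes were above 0, against 71.8% of all genes. The median was 0.42, and it was 0.26 without treated library 1 and 0.64 without treated library 3. Il10 had 0.588, 1.32 and 0.866 FPKM in NC and 1.92, 1.92 and 1.38 FPKM in the treated libraries, a log2 fold change of 0.52 without overlap, and its receptor Il10ra had 0.72 with overlap. Pparg, a nuclear receptor of adipocytes and macrophages, was lower, with 45.5, 30.8 and 30.3 FPKM against 33.9, 15.6 and 13.1 FPKM and a log2 fold change of -0.83. Adipocyte markers were lower as well, with 8 of 8 below 0 and a median of -0.44 that was -0.097 without treated library 3 and -0.84 without treated library 1, and their part in the Pparg value was not tested. Il13 was at most 0.183 FPKM and Il4 at most 1.10 FPKM.

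**Figure D5:**
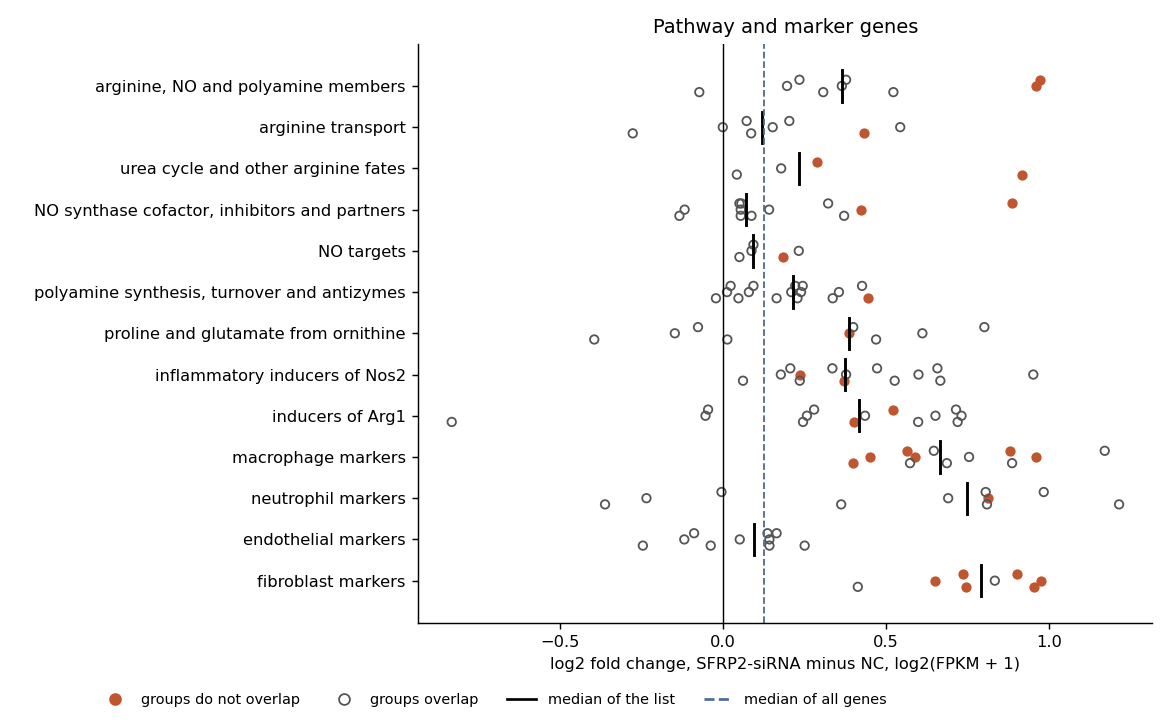
log2 fold change (SFRP2-siRNA minus NC, log2(FPKM + 1) scale) of each tested gene by list, filled where the groups do not overlap, with the median of each list as a bar and the median of all genes, 0.125, as a dashed line. Nos2, Arg1, Gatm and Ddah1 stand near 0.9 to 1.0, where several macrophage and fibroblast markers also lie.

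Genes whose profile over the 6 libraries was most like that of Nos2 or Arg1 were then listed, by the mean absolute difference of centred log2(FPKM + 1) values among genes whose mean reached 5 FPKM. Of 8110 candidates, Serpinb2, Lsp1 and Rcn3 were nearest to Nos2, at 0.13, 0.13 and 0.14. Serpinb2, a plasminogen activator inhibitor, had 26.0, 31.9 and 21.2 FPKM in NC and 42.3, 55.0 and 39.5 FPKM in the treated libraries. Of 8109 candidates, Fgd3, Slc16a3 and Evi2a were nearest to Arg1, at 0.095, 0.10 and 0.11. Slc16a3, the lactate exporter MCT4, had 9.75, 12.1 and 9.35 FPKM in NC and 22.4, 24.4 and 15.5 FPKM in the treated group, and as for Arg1 treated library 3 was the lowest of its group. With 6 libraries many genes have similar profiles, so these lists are a description.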

How the data were processed

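Paired-end mRNA libraries were made by the authors from 6 wound tissue samples of db/db mice, 3 per group. The authors deposited FPKM values per Ensembl gene; per the labels, HISAT2, featureCounts and Subread were used. The genome build is not given in the sources used here, so no coordinates are given. Symbols came from a gene name table (32582 of 33184 IDs matched). GENCODE vM21 lengths gave whole reads, within 0.02, for 96.5% of genes, so depth and reads per gene could be recovered; Nos2 needed another length. Of values of 1 to 20 reads, 63.8% were even, so mates seem to be counted singly and reads are not independent.

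FPKM values fit no count model, so limma 3.58.1 (R 4.3.3; lmFit, eBayes with trend, two-sided, Benjamini-Hochberg) was run on log2(FPKM + 1) where the mean over libraries reached 0.5 FPKM. Fold changes on this scale understate those of low genes. On simulated data 87.8% of 200 genes changed by 2 (log2) were recovered among 16005, beside 6.8 false calls on average. That change is larger than any of the 9 genes showed, and the simulated noise was independent between genes. The share recovered therefore does not give the power at the sizes seen here. Values of single ratios were compared by two-sided exact permutation tests. Named genes were the 9 genes, Sfrp2, up to 3 with the smallest p per pathway list, defining markers and the nearest profiles; others were named after their values were seen. The genes and lists were chosen with earlier results of these data known. Ratios other than Nos2 to Arg1 and those to macrophage markers were also added after values were seen. No 2 libraries shared values above 0. Alternatives were other pseudocounts, filters and scalings, voom on recovered reads, sample weights, the replicate number as a block and leaving out each library.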

Additional observations from a re-analysis of the deposited data

How the results depend on the processing

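Nos2 and Arg1 kept their direction, higher in the treated group, under all 16 alternatives, by 0.80 to 1.24 and 0.81 to 1.19 on the log2 scale, with adjusted limma p-values of 0.14 to 0.845 and 0.16 to 0.845. No gene passed adjustment under any alternative. Median-of-ratios scaling moved the median of all genes from 0.125 to 0; under it Nos2 and Arg1 were 0.83 and 0.81. The list medians were then 0.088 for other arginine fates, -0.063 for synthase cofactors and partners, -0.0060 for nitric oxide targets, 0.062 for polyamines and 0.23 for proline, so 2 of these turned sign, and arginine transport was -0.0090. With estimated sample weights, 5 of the 9 genes had an unadjusted p under 0.05, adding Arg2, Ass1 and Odc1; SFRP2-siRNA 2 had by far the highest weight, 5.27. Leaving out 1 library, genes with an unadjusted p under 0.05 numbered 887 (without NC 1) to 1974 (without NC 2), genes without overlap 3715 to 5539 and members without overlap 2 to 6, since fewer libraries overlap less often. Nos3 then ran from -0.255 to 0.089 and the nitric oxide targets from 0.063 to 0.223. Pairing by replicate number was not borne out (correlations of deviations -0.047, -0.15 and 0.38; 2 of 6 libraries correlated best with their own number). With the replicate block 2 of the 9 genes, Nos2 at 0.96 and Arg1 at 0.97, had an unadjusted p under 0.05 and 1929 genes did. Depth was no limit for the 9 genes, each on at least 332 reads per library, but 3 libraries a group limit every test.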
